A study of Mus musculus with 15 samples.

Results

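Whole ovaries of mice treated with canagliflozin were compared with untreated ovaries of the same age. The comparison used 10 of the 15 libraries of the study. In 5 of them the mouse was 12 months old and had received canagliflozin between 6 and 12 months of age, and in the other 5 it was 12 months old and untreated. A further 5 libraries came from untreated mice aged 6 months. They entered the estimate of the spread between mice, and their levels are given as a reference for age. Every mouse belonged to the UM-HET3 stock, in which a cross of several inbred strains gives each animal its own genotype, and mice were assigned to the groups at random at 6 months of age. Polyadenylated RNA of 1 ovary per mouse was sequenced, so each library stands for 1 animal. The sources used here give neither the dose of the drug nor the stage of the oestrous cycle. Of the 24656 genes listed, 17109 were tested, having a value no lower than 10 in 5 or more of the 10 libraries, and 7547 did not.

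Canagliflozin inhibits SGLT2, a sodium-dependent transporter that returns filtered glucose from urine to blood in the kidney, so that treated animals lose glucose in the urine. Loss of glucose lowers insulin and shifts fuel use toward fat and ketone bodies, and insulin, mTORC1 and AMPK signalling are among the pathways that read such a shift. The ageing ovary loses oocytes and follicles, while its stroma gains fibrous matrix and immune cells. Its steroid-producing cells, above all those of the corpus luteum, are rich in mitochondria and vessels and make their hormones from cholesterol.

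Values are the deposited reads per gene after division by 1 size factor per library, called normalised reads below, and are given as mean ± SD with n = 5 mice per group. Recovered depth was 11.2 ± 1.85 M reads (M, 1000000) after canagliflozin and 12.2 ± 0.720 M in untreated ovaries of that age (p = 0.317, exact two-sided permutation test). Markers of ovarian cell types were present in both groups. Of 26 oocyte genes 24 were tested, as were all 17 granulosa and all 16 luteal genes, and Gdf9, a growth factor made by oocytes, measured 527 ± 145 against 635 ± 155. Slc5a2, the gene of SGLT2, had 1 to 14 reads per library and stayed below the filter. The 13 protein-coding transcripts of the mitochondrial genome took 7.13 ± 1.60% of reads after canagliflozin and 4.00 ± 0.269% in the 12-month controls (p = 0.00794, exact two-sided permutation test, the smallest possible with 5 mice per group), and their part in the values of other genes was not tested. On the first principal component, which held 24.2% of the variance, canagliflozin replicates 1 and 2 lay at opposite ends.

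Outside the mitochondrial genome no gene passed the threshold between canagliflozin and 12-month controls. With limma and Benjamini-Hochberg adjustment over 17109 genes 1 gene was called at an adjusted p under 0.05 (0.00584%), the mitochondrially encoded mt-Nd4l. The smallest adjusted p elsewhere was 0.0653, at the predicted gene Gm13340. Whether reads of predicted genes come from mitochondrial transcripts was not tested. An unadjusted p under 0.05 was reached by 9.28% of genes, 832 on the higher side (4.86%) and 756 on the lower side (4.42%). In 100 genes (0.584%) every canagliflozin library lay above every 12-month control, and in 79 (0.462%) every one lay below, together 1.05%. Of these, 92 and 79 were not mitochondrially encoded, and 70 and 63 were named nuclear genes, the rest being predicted or unnamed. On whole reads recovered from the table, edgeR's quasi-likelihood test called 9 genes (0.0526%), of which Lrat was the only named nuclear gene. DESeq2 called 61 (0.357%), of which 13 were mitochondrially encoded, 20 were predicted or unnamed and 28 were named nuclear genes. The genes described first are the 12 named nuclear genes with the smallest p in each direction. Their limma adjusted p ran from 0.0733 to 0.324, and of the 24 all but Stk32a passed with DESeq2.

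**Figure D1:**
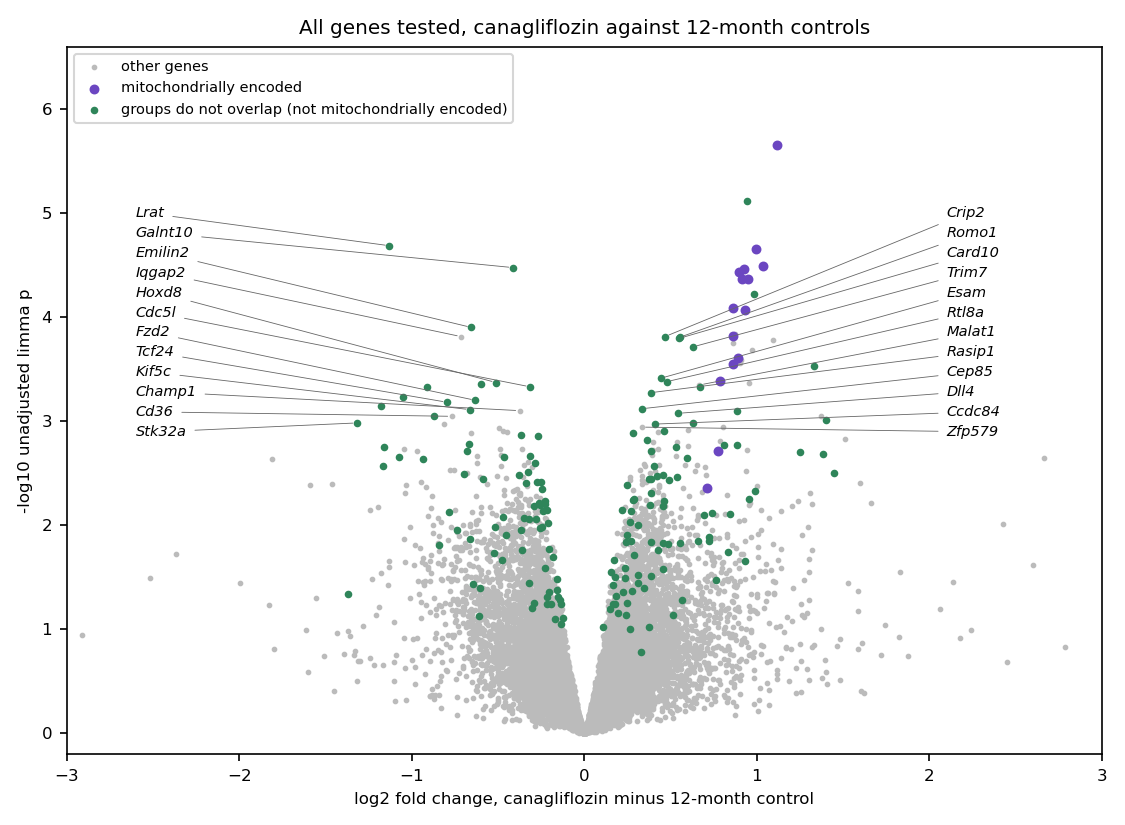
Log2 fold change (canagliflozin minus 12-month control, x axis) against the negative log10 of the unadjusted limma p (y axis) for 17109 genes, 1 point per gene. Mitochondrially encoded genes are purple, other genes whose groups do not overlap are green, and the 12 leading named nuclear genes of each direction are labelled.

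Lrat was the named nuclear gene with the smallest p. It encodes lecithin retinol acyltransferase, which esterifies vitamin A for storage in the cell. Its values were 217, 286, 153, 176 and 257 normalised reads in the canagliflozin libraries and 331, 520, 398, 549 and 579 in the 12-month controls. Every treated ovary lay below every untreated one. The group means were 218 ± 55.1 and 476 ± 106, or -1.13 on the log2 scale (SE 0.19, limma adjusted p = 0.0733). Lrat passed with edgeR (adjusted p = 0.0395) and with DESeq2 (adjusted p = 2.61e-05), and its log2 fold change lay between -1.25 and -1.01 when each library was left out. The 6-month controls measured 396 ± 73.6, also above the treated ovaries. Other genes of retinoid handling were looked at because of Lrat, with a list made after its values were seen. Of 20 members tested 13 were lower and 7 higher (median log2 fold change -0.15), and Lrat was the only one whose groups did not overlap. Aldh1a1, which makes retinoic acid from retinal, measured 10605, 15595, 10316, 9219.9 and 11461.5 after canagliflozin and 14784, 23060.2, 14794, 18920.5 and 13176.5 in the controls. Only canagliflozin replicate 2 reached the control range for Aldh1a1. The means were 11439.6 ± 2457 and 16947 ± 4025 (limma adjusted p = 0.435). Rxra, a nuclear receptor that pairs with the retinoic acid receptors, measured 701 ± 58.8 and 881 ± 96.3 (limma adjusted p = 0.394).

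The other leading genes with lower values were of mixed function. Galnt10, an enzyme that begins mucin-type O-glycosylation, had a narrow spread within groups. Its values were 679, 667, 672, 651 and 739 after canagliflozin and 924, 1008, 895, 823 and 895 in the 12-month controls, with no overlap (log2 fold change -0.41, SE 0.07, limma adjusted p = 0.0733, DESeq2 adjusted p = 3.49e-05). The 6-month controls were higher still, at 1249.7 ± 74.4. Emilin2, a glycoprotein of elastic matrix, measured 273, 188, 227, 229 and 227 against 279, 434, 351, 334 and 414, so that the highest treated ovary lay just below the lowest control (log2 fold change -0.65, limma adjusted p = 0.135). Fzd2, a receptor for Wnt ligands, measured 246, 231, 145, 222 and 240.2 against 258, 391, 349, 355 and 316, again without overlap (limma adjusted p = 0.25). For Galnt10, Emilin2 and Fzd2 the order of the means was the same, with the 6-month controls highest (Emilin2 687 ± 82.4, Fzd2 524 ± 67.4), then the 12-month controls, then the treated ovaries. Whether the 6-month and 12-month controls differed was not tested here.

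Kif5c and Cd36 had another order, in which the 12-month controls were highest. Kif5c, a kinesin motor chain, measured 92.5, 76.0, 64.1, 70.4 and 67.1 after canagliflozin and 113, 134, 103, 128 and 109 in the 12-month controls, without overlap, and 77.0 ± 16.7 at 6 months (limma adjusted p = 0.278). Cd36, a receptor that takes up fatty acids and lipoproteins, measured 275, 177, 173, 210.2 and 237 against 323, 592, 355, 325 and 274, and its 6-month mean was 221 ± 34.1. The highest treated value of Cd36 lay just above the lowest control, and control replicate 2 stood far above the rest (limma adjusted p = 0.289). Stk32a, a protein kinase, was the lowest in level of the 24 genes, at 11.1 ± 3.54 against 30.3 ± 15.2. Of the remaining 5, Hoxd8 (469 ± 87.4 against 660 ± 55.3), Cdc5l (431 ± 34.2 against 535 ± 21.7) and Tcf24 (34.0 ± 6.48 against 60.1 ± 14.3) did not overlap between groups. Hoxd8 is a homeobox transcription factor and Cdc5l is a component of the spliceosome. Iqgap2 and Champ1 overlapped, Iqgap2 through 12-month control replicate 3 alone. With each library left out in turn, the limma adjusted p of Iqgap2 ran from 0.0189, without that control, to 0.434. Leaving out the only overlapping library favours a call by itself.

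**Figure D2:**
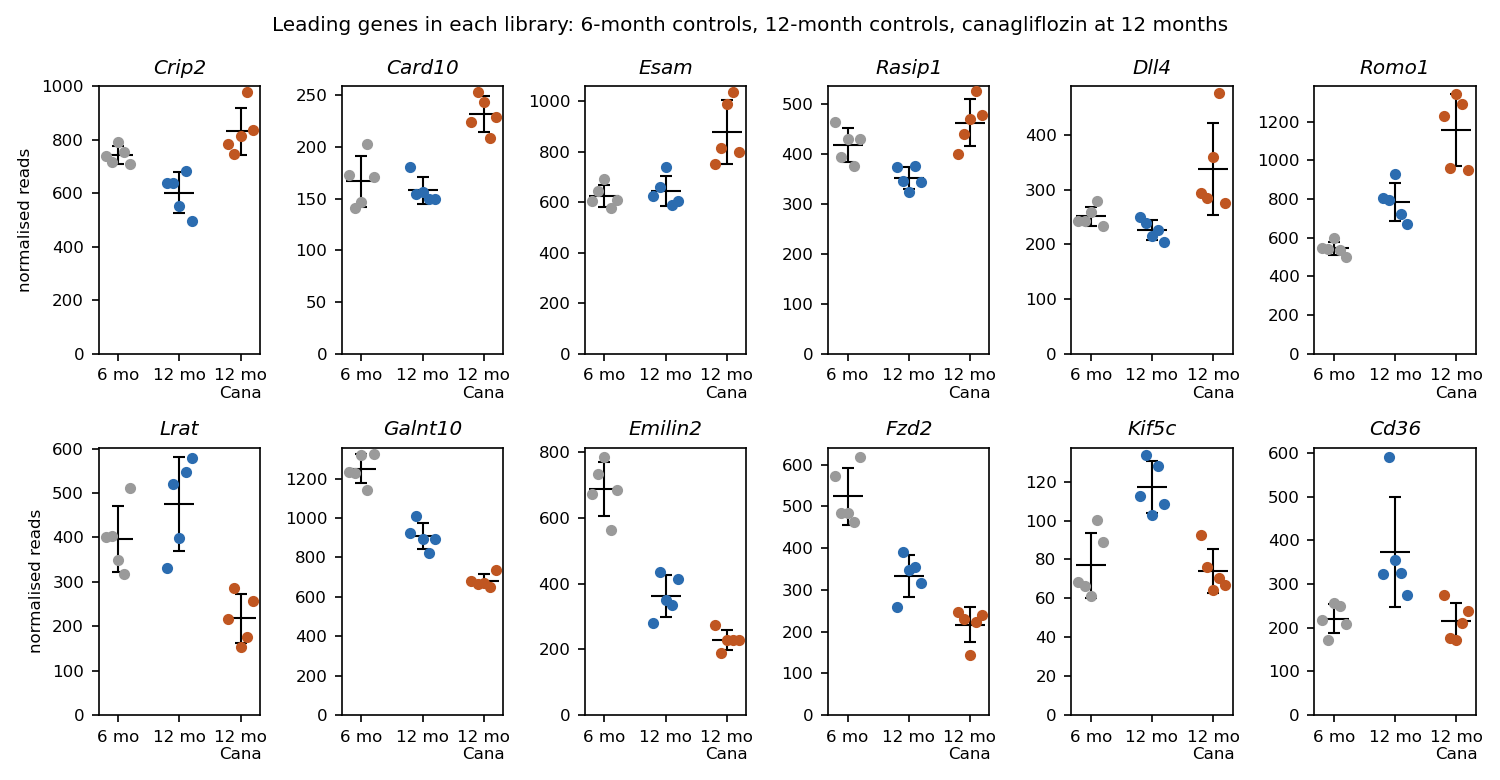
Normalised reads (y axis, from 0) of 12 of the leading genes in each of the 15 libraries, with 6-month controls in grey, 12-month controls in blue and canagliflozin in orange, and with black bars for the mean and SD of 5 mice. In all panels but that of Cd36 the canagliflozin points do not overlap those of the 12-month controls.

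Among the 12 leading genes with higher values, Crip2, Card10, Esam, Rasip1 and Dll4 are known from blood vessels. Crip2, a LIM-domain protein abundant in endothelium, measured 785, 746, 813, 977 and 837 in the canagliflozin libraries and 639, 638, 553, 684 and 496 in the 12-month controls. The lowest treated ovary lay above the highest control (log2 fold change 0.47, SE 0.10, limma adjusted p = 0.135, DESeq2 adjusted p = 0.00223). Card10, a scaffold that links receptors to NF-kB, measured 224, 253, 244, 208 and 229 against 180.4, 154, 156, 149.7 and 149.4, again without overlap (log2 fold change 0.55, limma adjusted p = 0.135). Esam, an adhesion molecule of endothelial tight junctions, measured 751, 815, 988, 1038 and 801 against 623, 659.8, 738, 588 and 605. Rasip1, an effector of the small GTPase Rap1 that is needed for vessel lumens, measured 399, 439.5, 469.6, 526 and 477 against 374, 345, 324, 375 and 344. Esam and Rasip1 also had groups that did not overlap, with limma adjusted p of 0.202 and 0.221. Dll4, the Notch ligand of sprouting vessels, measured 294.5, 285, 361, 477 and 275 against 250.1, 239.6, 215, 226 and 204 (limma adjusted p = 0.286). Canagliflozin replicate 4 was the highest library for Crip2, Esam, Rasip1 and Dll4, and without it the log2 fold change of Dll4 was 0.42. At 6 months the levels were 742 ± 32.8 for Crip2, 167 ± 24.5 for Card10, 626 ± 43.4 for Esam, 419 ± 34.6 for Rasip1 and 251 ± 17.99 for Dll4.

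Markers of blood endothelium as a list lay slightly higher after canagliflozin, with 19 of 20 members positive against 50% of all genes tested. The median log2 fold change was 0.21, against -0.0002 over all genes. An unadjusted p under 0.05 was reached by 5 on the higher side (4.86% of all genes) and 1 on the lower side (4.42%), and none was called. In 2, Esam and Emcn, the groups did not overlap (0.584% of all genes on the higher side), and Esam was already among the leading genes above. Emcn, the endothelial sialomucin endomucin, measured 359, 429, 367, 480 and 356 against 275, 266, 354, 340.5 and 284. Robo4 (525 ± 92.7 against 401 ± 55.1) and Pecam1 (991 ± 181 against 790 ± 108) overlapped between groups, while Vwf lay on the other side at 93.1 ± 21.0 against 125 ± 24.5. Kdr and Cdh5, which encode a VEGF receptor and VE-cadherin, showed little difference (log2 fold change 0.02, SE 0.20, and 0.07, SE 0.14). The level of the list, the mean log2 value of its members, ran from 8.64 to 9.31 after canagliflozin and from 8.68 to 8.95 in the controls, with the lowest treated value in replicate 1 and the highest in replicate 4. Of 24 angiogenic signals 20 were positive (median 0.13, but 0.05 with the level of luteal markers as a covariate and 0.08 without canagliflozin replicate 4), with Dll4 in front, followed by its receptor Notch4 (726 ± 243 against 477 ± 91.2) and the endothelial nitric oxide synthase Nos3 (414 ± 70.2 against 335 ± 31.4). A list of junction and Notch genes, written after Crip2, Card10, Esam, Rasip1 and Dll4 had been seen and holding these genes, had 22 of 26 members positive and a median of 0.13. Lymphatic markers did not share the direction, with 4 of 9 positive and a median of -0.19. In bulk tissue more endothelial cells and more RNA per endothelial cell cannot be told apart.

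Promoter sequence of vessel genes is shown because these genes led the comparison and endothelial genes are classically bound by ETS-family factors. The sequences are RefSeq promoters of build GRCm38.p6, 300 bases long with 250 before and 50 after the start of transcription, read 5′ to 3′ on the gene's strand, and the capitals mark the ETS core AGGAAG or its reverse complement. Rasip1 lies at chr7:45627287-45627586 on the plus strand and Card10 at chr15:78802993-78803292 on the minus strand.
Rasip1: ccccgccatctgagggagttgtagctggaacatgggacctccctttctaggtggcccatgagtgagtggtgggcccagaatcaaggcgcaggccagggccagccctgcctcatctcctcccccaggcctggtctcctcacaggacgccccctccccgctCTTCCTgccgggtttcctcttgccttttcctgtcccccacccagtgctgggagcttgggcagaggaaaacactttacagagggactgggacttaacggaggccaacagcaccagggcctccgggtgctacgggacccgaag
Card10: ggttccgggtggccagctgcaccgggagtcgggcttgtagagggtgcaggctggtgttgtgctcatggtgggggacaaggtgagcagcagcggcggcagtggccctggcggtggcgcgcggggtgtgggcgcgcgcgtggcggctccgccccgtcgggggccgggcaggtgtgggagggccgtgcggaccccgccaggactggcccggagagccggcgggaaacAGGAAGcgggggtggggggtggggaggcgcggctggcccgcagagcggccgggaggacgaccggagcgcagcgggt
In Rasip1 the match starts 91 bases before the start of transcription, and in Card10 26 bases before it. Over both strands AGGAAG occurred in 9 of 13 promoters (69.2%) of the 11 blood endothelial genes with an entry, against 35.4% of all 32851 promoters. In the junction and Notch list, which holds Rasip1 and Card10, it occurred in 7 of 25 (28%), below the 35.4% of all promoters. Neither Rasip1 nor Card10 is in the blood endothelial list, so their matches are not examples of its higher share. Promoters of the leading vessel genes Crip2, Esam and Dll4 are not shown. A match is a description of the letters and not of binding.

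The remaining leading genes with higher values included Romo1 and Malat1. Romo1, a small protein of the inner mitochondrial membrane named for its effect on reactive oxygen species, measured 1232, 962, 1343, 1292 and 949 after canagliflozin and 804, 795, 929, 721 and 669 in the 12-month controls (log2 fold change 0.55, SE 0.11, limma adjusted p = 0.135). The groups did not overlap, and the 6-month controls were lowest, at 544 ± 33.9. Malat1, an abundant long non-coding RNA kept in the nucleus, measured 48808, 43124, 50423, 52350 and 32582 against 33741, 23780, 27772, 32391 and 24706. Only canagliflozin replicate 5 fell within the control range for Malat1 (limma adjusted p = 0.202), and the 6-month mean was 14975 ± 1955. Canagliflozin replicate 5 also had the lowest share of mitochondrial transcripts in its group, at 4.67%. Trim7, a ubiquitin ligase that binds glycogenin, measured 242 ± 34.2 against 155 ± 14.3, and Rtl8a, a gene derived from a retrotransposon, 756 ± 86.4 against 543 ± 77.3. Neither overlapped between groups, nor did Cep85, a centrosome protein (425 ± 27.5 against 337 ± 30.5), or Ccdc84 (375 ± 51.4 against 280 ± 16.0). Zfp579, a zinc finger protein, measured 1488 ± 136 against 1181 ± 117 and overlapped.

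Nuclear genes of the respiratory chain had small positive differences across most subunits. The list of 37 nuclear genes named for complex I (Nduf symbols), the entry point of electrons from NADH, had 35 positive members. Of the 37, 20 had an unadjusted p under 0.05, all on the higher side, beside the 4.86% of all genes. The median log2 fold change was 0.26. Ndufa6 measured 2184, 1613, 1910.02, 1896 and 1674 after canagliflozin and 1536, 1300.1, 1778, 1326 and 1304 in the 12-month controls, where only control replicate 3 reached into the treated range. Ndufa3 (1577 ± 268 against 1161 ± 149.7) and Ndufv3 (1154 ± 185 against 872 ± 94.3) also overlapped. Of 39 genes of complexes II to V 32 were positive, 14 at an unadjusted p under 0.05 (4.86% of all genes on that side), with a median of 0.23. Atp5g1, which encodes the c subunit of ATP synthase, measured 494.1, 449.9, 494.3, 382 and 256 against 237, 235, 247, 188 and 249 and did not overlap (log2 fold change 0.81, SE 0.22, limma adjusted p = 0.367, DESeq2 adjusted p = 0.0494). The list levels of the canagliflozin group overlapped the controls in both cases, at 9.73 to 10.1 against 9.57 to 9.96 for complex I, with canagliflozin replicate 5 lowest and control replicate 3 highest. The 6-month level of complex I was 9.49 ± 0.16. Atp5g1 measured 256 ± 89.2 at 6 months, from 171 to 381, which reached into the treated range. Machinery that copies and expresses the mitochondrial genome was at the background, with 13 of 25 genes positive and a median of 0.01.

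Short transcripts as a whole had positive fold changes. Over all genes sorted by transcript length, and divided into 5 equal groups, the median log2 fold change was 0.12 among the shortest (median length 899 bases, 66.4% positive) and -0.07 among the longest (6511 bases, 35.2% positive). Of the 37 complex I genes 25 were in the shortest of these groups, as were 22 of the 39 of complexes II to V, 14 of 32 mitochondrial ribosomal genes and 34 of 47 cytosolic ribosomal genes. With each library corrected for its trend with length, the medians were 0.18 for complex I, 0.13 for complexes II to V, 0.10 for the mitochondrial ribosome (0.19 before) and 0.06 for the cytosolic ribosome (0.16 before). The endothelial and cholesterol medians hardly moved, to 0.19 and 0.45. In the mitochondrial ribosome 25 of 32 genes were positive. An unadjusted p under 0.05 was reached by 10 on the higher side (4.86% of all genes) and 2 on the lower side (4.42%). Mrpl33 and Mrpl51, proteins of the mitochondrial ribosome on the higher side, measured 1337 ± 225 against 981 ± 106 and 908 ± 161 against 670 ± 91.9. In the cytosolic ribosome 41 of 47 genes were positive and 1 had an unadjusted p under 0.05 (4.86% of all genes on that side). Ribosomal protein genes, Gapdh and Atp5g1 have pseudogene copies or close relatives, so reads may be shared and single values are uncertain.

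**Figure D3:**
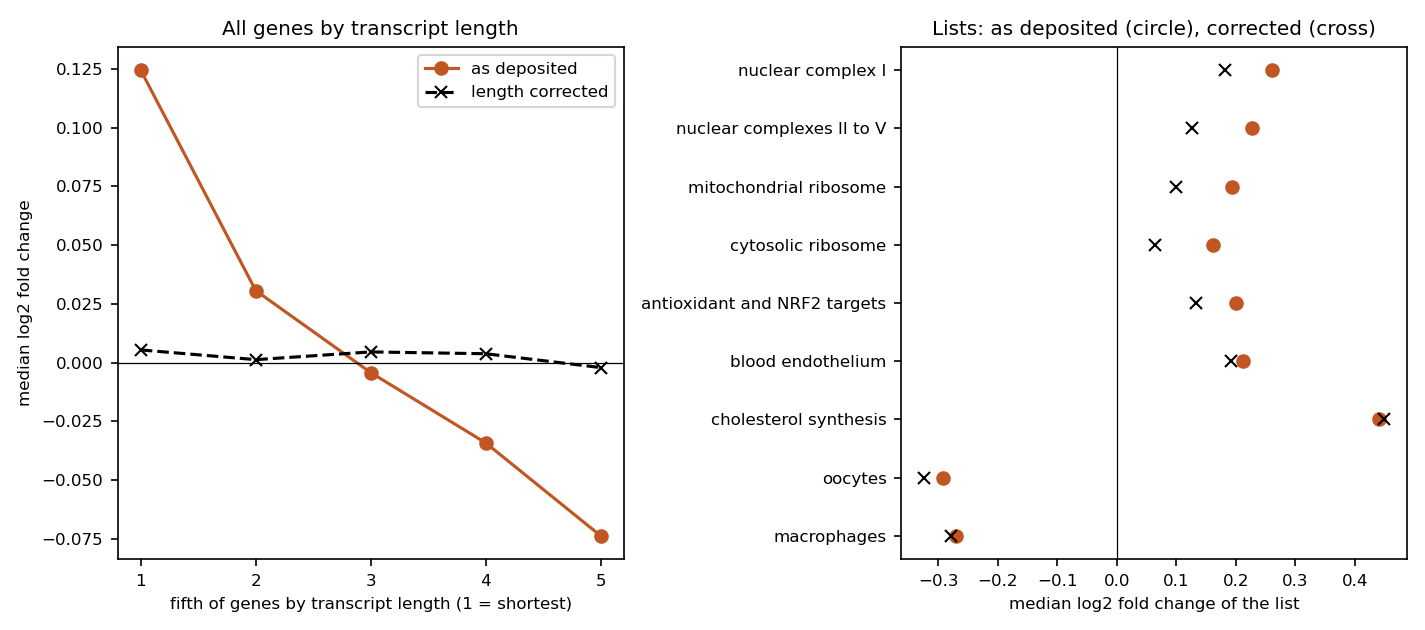
Left, median log2 fold change (canagliflozin minus 12-month control) of all genes with a known length in 5 equal groups from the shortest to the longest transcripts, as deposited and after correction for length. Right, medians of 9 lists before (circle) and after (cross) the correction, which lowers the respiratory and ribosomal lists and leaves the endothelial, cholesterol and macrophage lists near their values.

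Pathways that read glucose and insulin had medians between -0.14 and 0.07. In glucose transport and glycolysis 15 of 23 genes were positive with a median of 0.07, and 3 had an unadjusted p under 0.05, all on the higher side (4.86% of all genes). They were Gapdh (6055, 3053, 5038, 4831 and 2717 against 2638, 2728, 3539, 2186 and 2044), Aldoa (12813 ± 1739 against 9754 ± 1173) and Gpi1 (3222 ± 492 against 2682 ± 158). All 3 are glycolytic enzymes, and in each the groups overlapped. Ketone body use gave 5 of 9 positive, a median of 0.04 and no gene at an unadjusted p under 0.05. Fasting and FoxO response genes gave 5 of 18 positive and a median of -0.14. Irs2 and Irs1, the adaptors below the insulin receptor, measured 186 ± 14.9 against 262 ± 60.7 and 929.5 ± 103 against 1179 ± 237, while the repressor Bcl6 measured 603 ± 213 against 389 ± 86.4. For Irs2 only the highest treated value, 209, reached above the lowest control, 206. AMPK and its regulators had 6 of 17 positive with a median of -0.04. In the mTORC1 pathway 18 of 25 were positive and 6 had an unadjusted p under 0.05, all on the higher side (4.86% of all genes), with a median of 0.06. Lamtor4 and Lamtor5, parts of the complex that anchors mTORC1 on lysosomes, measured 989 ± 204 against 706 ± 69.6 and 489 ± 73.7 against 387 ± 34.6, and Tfeb, the lysosomal transcription factor that mTORC1 restrains, 270 ± 44.4 against 208 ± 30.1. The mTORC1 list level was 9.27 ± 0.04 after canagliflozin, 9.17 ± 0.05 in the 12-month controls and 9.29 ± 0.05 at 6 months, with the treated and control ranges overlapping (9.23 to 9.33 and 9.11 to 9.24).

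Cholesterol synthesis had a high median with wide spread between mice. Of 24 genes 23 were positive and the median log2 fold change was 0.44, yet only Ebp and Fdft1 had an unadjusted p under 0.05 (4.86% of all genes on that side). The list level spanned 9.74 to 11.6 in the treated ovaries and 9.88 to 11.3 in the controls, with canagliflozin replicate 1 the lowest and replicate 2 the highest of all 10 libraries. Fdft1, squalene synthase, measured 1537, 3066, 2320.4, 1872 and 2114 against 1385, 1416, 2248, 1352 and 1535. Control replicate 3 was therefore within the treated range, and the limma adjusted p was 0.532. Hmgcs1, an early enzyme of the pathway, measured 3099, 15358.5, 8549.7, 7701 and 11420.5 after canagliflozin against 6122, 4138, 9026, 5341 and 8077 (log2 fold change 0.37, SE 0.38), so that the treated group held both the lowest and the highest value. Luteal marker levels ran from 11.8 to 12.5 in the treated ovaries and 11.5 to 12.4 in the controls. With the luteal level as a covariate the cholesterol median was 0.21, and with the level of red blood cell genes as a covariate it was 0.18. The median was 0.25 without control replicate 2 and 0.72 without canagliflozin replicate 1.

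Promoters of this pathway were searched for motifs classically read by the sterol-sensing factor SREBP and its partner NF-Y, and 2 are shown. Capitals mark the sterol element TCACCCCAC and the NF-Y letters CCAATC or the reverse complement, on the same build and window as above. Hmgcs1 lies at chr13:119690101-119690400 and Mvk, mevalonate kinase, at chr5:114444019-114444318, both on the plus strand.
Hmgcs1: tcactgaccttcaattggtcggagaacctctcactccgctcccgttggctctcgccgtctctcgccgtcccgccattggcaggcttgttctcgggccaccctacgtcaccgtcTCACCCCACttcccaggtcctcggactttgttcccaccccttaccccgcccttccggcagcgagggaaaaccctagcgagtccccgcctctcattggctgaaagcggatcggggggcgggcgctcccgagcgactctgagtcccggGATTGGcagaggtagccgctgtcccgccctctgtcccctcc
Mvk: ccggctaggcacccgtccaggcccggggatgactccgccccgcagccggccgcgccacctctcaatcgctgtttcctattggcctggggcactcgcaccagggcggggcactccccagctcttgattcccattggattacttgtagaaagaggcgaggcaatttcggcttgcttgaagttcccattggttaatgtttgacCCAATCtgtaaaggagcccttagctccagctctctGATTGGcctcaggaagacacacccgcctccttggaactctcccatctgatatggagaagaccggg
In Hmgcs1 the sterol element starts 137 bases before the start of transcription and an NF-Y match begins 9 bases after it, and in Mvk NF-Y matches begin 50 and 15 bases before the start. Searched on both strands, CCAATC occurred in 14 of 20 promoters (70%) of the 17 cholesterol genes with an entry, against 16.1% of all promoters. TCACCCCAC occurred in 1 of 20 (5%), that of Hmgcs1 and not that of Mvk, against 0.551%. Mvk itself measured 469 ± 102 against 363 ± 131 (limma adjusted p = 0.618).

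Fatty acid synthesis and storage gave 16 of 20 positive with a median of 0.07. The 3 genes with the smallest p differed in direction. Pnpla2, the lipase that opens lipid droplets, measured 1012, 1179.9, 964, 1194 and 1037 against 828, 847, 990.4, 804 and 904, and Acaca, which commits acetyl units to fatty acids, 823 ± 220 against 618 ± 28.5. Plin2, which coats the droplets, measured 678, 815, 645, 955 and 874 against 1178, 1129, 899.5, 1074 and 876. None of the 3 separated the groups completely. Fat cell markers had 5 of 12 positive and a median of -0.34, which was -0.58 without control replicate 3 and 0.11 without control replicate 2. Plin1 measured 181 ± 41.8 against 321 ± 194, and control replicate 2 stood at 646 and was also the highest control for Cd36.

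Oocyte genes had a negative log2 fold change in 21 of 24 members and a median of -0.29, with low levels in 2 of the 5 treated ovaries. An unadjusted p under 0.05 was reached by 3, all on the lower side (4.42% of all genes), and no member separated the groups. Bmp15, a growth factor secreted by oocytes, measured 218, 124, 173, 93.2 and 197 after canagliflozin and 183, 301, 240.5, 208 and 219 in the 12-month controls. Nobox, a transcription factor of early oocytes, measured 46.2, 34.3, 61.2, 32.7 and 98.1 against 66.8, 97.0, 81.7, 61.5 and 86.8. Its highest value among the 12-month libraries was canagliflozin replicate 5. Nlrp5, a maternal-effect gene, measured 282 ± 108 against 379 ± 59.8. Canagliflozin replicates 2 and 4 held the lowest oocyte list levels, 6.56 and 6.58, while the other 3 treated ovaries lay between 7.37 and 7.46, within the control range of 6.99 to 7.69. The 6-month level was 7.29 ± 0.28.

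Somatic and steroid-producing cells gave no common direction. Of 17 granulosa genes 10 were positive (median 0.08) and none had an unadjusted p under 0.05. The smallest p was that of Amhr2, the receptor of anti-Mullerian hormone, at 1023 ± 228 against 1239 ± 253. Theca and steroidogenic stroma gave 7 of 15 positive (median -0.14), with Aldh1a1 and the Hedgehog receptor Ptch1 (757 ± 223 against 949 ± 142) on the lower side. Luteal markers gave 11 of 16 positive (median 0.09) and none at an unadjusted p under 0.05. Mt2, a metallothionein in that list, measured 1219, 1383, 1135, 1124 and 1086 against 782, 1089, 857, 718 and 674, so that only control replicate 2 entered the treated range. Genes of steroid hormone synthesis had a median of 0.14 with 11 of 18 positive.

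Markers of the ovarian surface epithelium, the mesothelial layer around the ovary, gave 14 of 16 positive with a median of 0.42, which was 0.24 without control replicate 5. Upk1b, a uroplakin, measured 260.4, 143, 251.6, 126 and 286 after canagliflozin and 128, 45.6, 139.5, 34.9 and 19.1 in the 12-month controls. Its spread was wide, and canagliflozin replicate 4 lay below 2 of the controls (log2 fold change 1.83, SE 0.75, limma adjusted p = 0.5). Msln, mesothelin, measured 231 ± 77.5 against 139 ± 51.6 and Lgals7, a galectin of epithelia, 256 ± 110 against 135 ± 53.003. The list levels fell into a high set of treated ovaries, replicates 1, 3 and 5 at 7.80 to 7.83, and replicates 2 and 4 at 6.75 and 7.02 within the control range of 6.33 to 7.44. Replicates 2 and 4 were also those with the lowest oocyte levels.

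**Figure D4:**
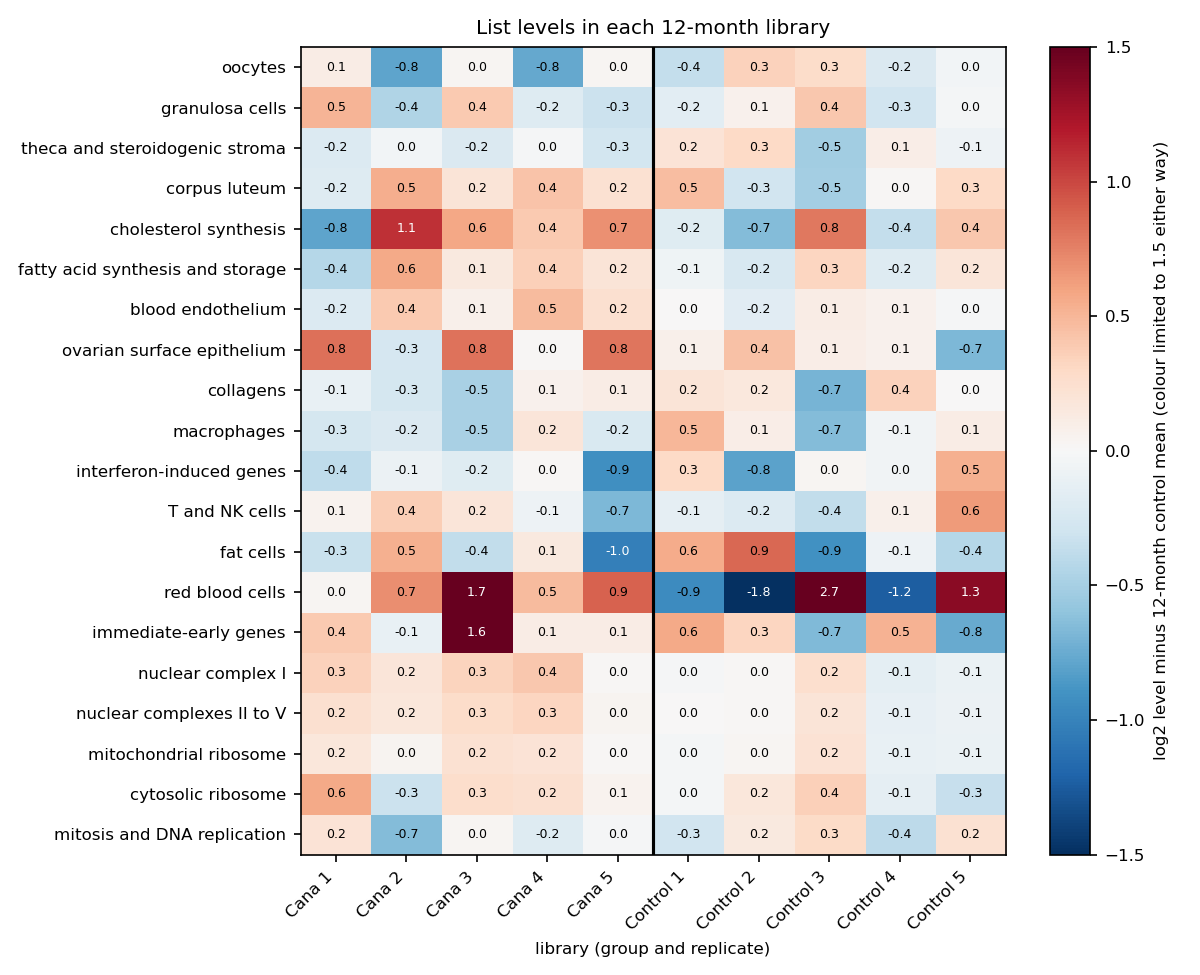
Level of 20 gene lists in each canagliflozin (left) and 12-month control (right) library, as the log2 level minus the mean of the 12-month controls, in numbers and in colour. No row separates the groups completely, and red blood cell, immediate-early, cholesterol and fat cell rows vary most between mice.

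Immune lists differed in direction. Macrophage, interferon and complement genes had negative medians, while cytokines and chemokines gave 11 of 18 positive (median 0.09) and B and plasma cell genes 6 of 7 positive (median 0.16). Macrophage markers gave 19 of 23 negative with a median of -0.27, and 1 member on the higher side (4.86% of all genes) and 2 on the lower side (4.42%) had an unadjusted p under 0.05. Adgre1, the F4/80 antigen, measured 30.4, 52.1, 34.5, 51.6 and 52.0 after canagliflozin and 88.8, 64.0, 33.0, 69.7 and 116 in the 12-month controls, where control replicate 3 alone lay in the treated range. Ms4a7 measured 73.1 ± 20.3 against 102 ± 22.9, and the transcription factor Maf, which is also made by other cells, lay on the other side at 5993 ± 2598 against 3417 ± 1705.5. Interferon-induced genes gave 24 of 27 negative with a median of -0.25, led by Ifit3b (16.6 ± 3.03 against 38.1 ± 18.1) and the guanylate-binding protein Gbp2 (443 ± 153 against 580 ± 84.3). In the complement list 12 of 19 were negative (median -0.16), with C1ra (712 ± 102 against 930 ± 166) and the anaphylatoxin receptor C3ar1 (45.5 ± 13.1 against 75.9 ± 25.03) in front. None of these genes was called, and the macrophage levels overlapped fully (6.89 to 7.56 against 6.72 to 7.87). The 6-month macrophage level was 7.60 ± 0.28. The 6-month mean was the highest of all groups for Adgre1 (173 ± 20.6), C1ra (1650 ± 263), C3ar1 (90.4 ± 23.2) and Gbp2 (667 ± 87.7). It was not the highest for Ms4a7 (80.4 ± 9.29), Maf (2894 ± 1007) and Ifit3b (37.3 ± 15.2). T and NK cell markers had a median of -0.01. Antigen presentation genes gave 15 of 17 negative (median -0.08, but 0.08 without canagliflozin replicate 5). The interferon median was -0.14 without canagliflozin replicate 5 and -0.50 without control replicate 2.

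Matrix genes leaned to the lower side with exceptions. Of 20 collagens 14 were negative (median -0.18) and none had an unadjusted p under 0.05. Col5a2 measured 647 ± 143 against 829 ± 193 and Col12a1 456 ± 229 against 690 ± 239, and their 6-month levels were 1498 ± 299 and 1043 ± 305. Without 12-month control replicate 3, the control with the lowest collagen level, the median was -0.35, and without canagliflozin replicate 3 it was -0.03. Among 27 other matrix genes 19 were negative. Eln, elastin, lay on the higher side with no overlap, at 367.5, 365, 336, 506.5 and 356 against 278, 284, 271, 322 and 306 (log2 fold change 0.39 ± 0.12 SE, limma adjusted p = 0.457). The 6-month level of Eln was 484 ± 68.4. Thbs1, the matricellular protein thrombospondin, measured 3465 ± 439 against 4865 ± 949. In TGF-beta signalling, the main fibrogenic pathway, 16 of 22 were negative (median -0.14). The ligand Tgfb3 measured 566 ± 66.6 against 695 ± 97.4 and the receptor Acvrl1 522 ± 160 against 938 ± 396. Ltbp3, which holds latent TGF-beta in the matrix, lay on the higher side at 6857 ± 1479 against 5454 ± 579.

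Stress lists had medians on both sides of 0. Endoplasmic reticulum stress (15 of 20 negative, median -0.06), DNA repair (18 of 24 negative, -0.05) and lysosome (-0.04) were slightly negative, and heat shock, hypoxia and autophagy genes had medians of 0.01. Of 30 antioxidant and NRF2 target genes 21 were positive and 6 had an unadjusted p under 0.05, all on the higher side (4.86% of all genes). Their median was 0.20, or 0.13 after correction for length and 0.11 without canagliflozin replicate 2. Gss, glutathione synthetase, measured 484, 571, 852, 762 and 406 against 434, 326, 369, 353 and 478, with canagliflozin replicate 5 inside the control range. Sod1, the cytosolic superoxide dismutase, measured 4405, 5272, 4359, 4536 and 4922 against 3456, 3842, 4447, 3629 and 3155, where control replicate 3 alone overlapped. Hmox1, haem oxygenase, measured 1228 ± 248 against 899 ± 145. In p53 targets and senescence genes 13 of 20 were positive (median 0.23), led by the cell death gene Bax (1152 ± 205 against 886 ± 138), the kinase Plk2 (540 ± 61.8 against 405 ± 54.0) and Igfbp3 (753 ± 291 against 475 ± 235). Genes of mitosis and DNA replication gave 22 of 27 negative with a median of -0.13, which was 0.02 without canagliflozin replicate 2, and the lead members Ccne2 and Mcm4 measured 46.2 ± 9.04 against 64.3 ± 13.95 and 321 ± 33.5 against 384 ± 50.9.

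Over all 60 lists the median log2 fold change was above 0.2 in 8 and below -0.2 in 4, and no list level separated the 2 groups of mice. Red blood cell genes had the highest median, 0.91, but it was 0.34 without control replicate 2 and negative with edgeR and DESeq2. Levels of red blood cell genes were 7.86 to 9.55 in the treated ovaries and 5.99 to 10.49 in the controls. With their level as a covariate the median turned sign for several lists, among them fat cells (-0.34 to 0.15), B and plasma cells (0.16 to -0.04), ovulation and cumulus expansion genes (-0.19 to 0.10) and collagens (-0.18 to 0.005), and it stayed close to its value for blood endothelium (0.22), surface epithelium (0.43) and complex I (0.23).

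**Figure D5:**
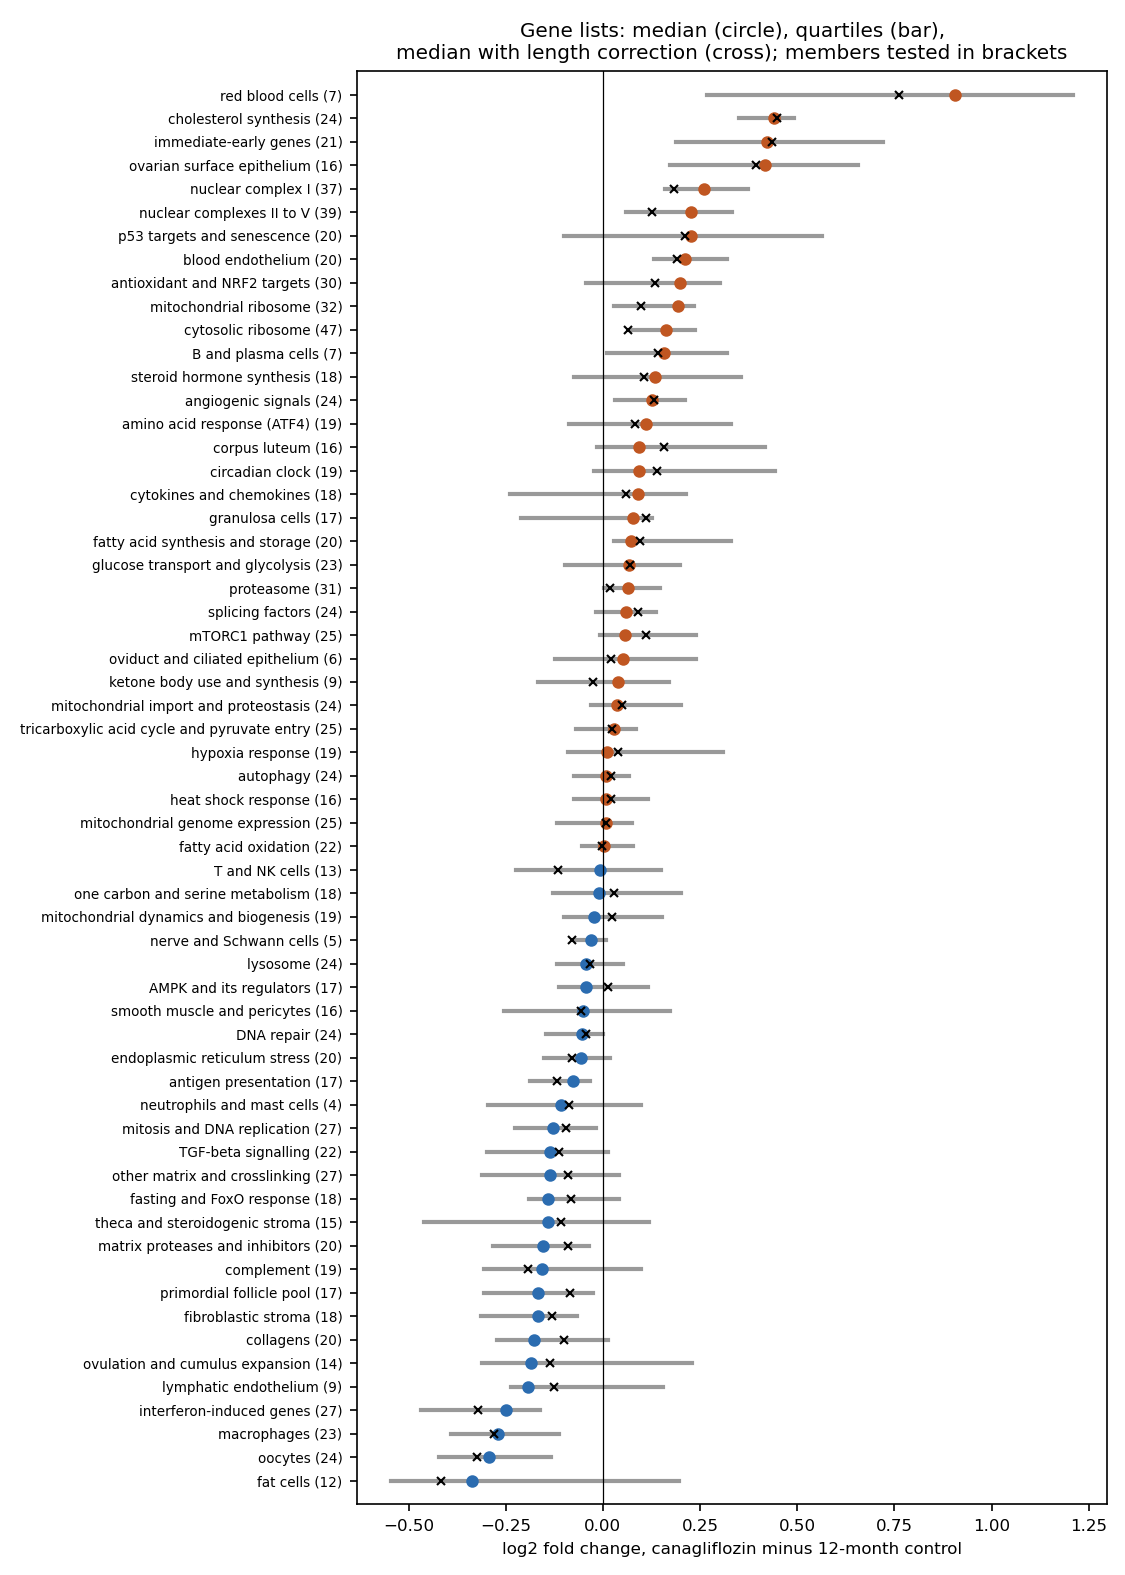
Median log2 fold change (canagliflozin minus 12-month control, x axis) of the tested members of 60 gene lists, with the number tested in brackets, bars from the lower to the upper quartile of members, and crosses for the median after correction for transcript length. Red blood cells and cholesterol synthesis lie highest, and fat cells and oocytes lowest.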

How the data were processed

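The deposited values are a signal for each gene in each library. Judged by the values, the authors scaled whole reads by a size factor, 1 for each library, since over 99.99% of values in each library are whole multiples of its value per read, within 0.1 of a read. Partek 11.0 and mm39 are named per the submitters' processing notes. The sources used here give no aligner, counter, annotation or normalization method, and the labels' stated depth is far below the recovered totals, a difference that was not resolved. No 2 libraries of a group agreed within counting noise.

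Genes at 10 or above in 5 or more of the 10 libraries were tested with limma 3.58.1 (R 4.3.3; trend and robust variance) on log2(value + 1), with all 15 libraries in 1 fit, and called at a Benjamini-Hochberg adjusted p under 0.05. Fold changes on this scale understate changes of low genes. Recovered reads were also tested with edgeR 4.0.16 and DESeq2 1.42.0. Transcript lengths came from an annotation of another build, GRCm38, matched by identifier for 23876 of 24656 genes, and no gene coordinates were used from it.

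The members and lists were chosen with earlier results of these data known, so no p was computed over a list. Named genes were the 12 with the smallest p in each direction with a named symbol and a mean of at least 20, then the 2 to 4 members with the smallest p of each described list, and Slc5a2. Hmgcs1, Mvk, Gdf9, Vwf, Kdr, Cdh5 and the genes named only in the closing section were chosen after their values were seen. So were the retinoid and junction lists, the fit without canagliflozin replicates 1 and 2, and the red blood cell covariate.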

Additional observations from a re-analysis of the deposited data

Results flagged for a closer look

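In 12 of 242 groups of 5 libraries, 1 library stood apart from the others by Dixon's test at the 95% level, which chance gives in about 1 in 20 groups. Among the leading genes these were Card10 in 12-month control replicate 1 (180.4 normalised reads, others 149.4 to 156), Fzd2 in canagliflozin replicate 3 (145, others 222 to 246), Cd36 in control replicate 2 (592, others 274 to 355) and Stk32a in the same control (57.2, others 21.7 to 26.7). Among members of the lists they were Atp5g1 in control replicate 4 (188, others 235 to 249), Acaca in control replicate 5 (569.6, others 624 to 644) and Fdft1 in control replicate 3 (2248, others 1352 to 1535). The others were Eln in canagliflozin replicate 4 (506.5, others 336 to 367.5), Ltbp3 in canagliflozin replicate 3 (9424, others 5769 to 6691) and Igfbp3 in canagliflozin replicate 2 (1269, others 579.5 to 662). For list levels they were glucose transport and glycolysis in canagliflozin replicate 3 (9.68, others 9.58 to 9.60) and complement in control replicate 3 (8.11, others 8.69 to 8.88).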

How the results depend on the processing

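The number of called genes was 1 with pseudocounts of 0.5 and 5, a filter at 50 and TMM rescaling. It was 2 without a filter on low values, 0 with only the 10 libraries compared, 9 with edgeR, 61 with DESeq2, 20 with library weights, 0 with the luteal covariate, 0 with the length correction, 6 with the red blood cell covariate and 0 without canagliflozin replicates 1 and 2. Leaving out 1 library gave 0 to 37 calls, with 37 without canagliflozin replicate 5, 2 without 12-month control replicate 3 and 0 in each other case. The cause was not tested. The 37 included Lrat, Galnt10, Champ1, Hoxd8, Malat1 and Romo1. The number of genes whose groups do not overlap was 179, and it was 243 to 657 with 1 library fewer and 621 without canagliflozin replicates 1 and 2, where fewer libraries separate more easily.

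Replicate numbers did not pair the samples. The correlation of deviations was -0.02, -0.32, 0.20, -0.03 and 0.04 for numbers 1 to 5, and 1 of 5 libraries correlated best with its own number. With the replicate block 3 genes were called, Lrat among them. Over 2180 alternative values of the 91 named genes none changed sign and 38 passed the threshold that the main value missed. These genes had been picked for a small p in the same libraries, so stable signs were likely from the start. Of 1488 alternative list medians 104 changed sign, 8 of them in the 12 lists beyond 0.2 either way, among them red blood cells (-0.39 with edgeR and -0.38 with DESeq2) and fat cells. With each library left out in turn, medians ran from 0.14 to 0.30 for blood endothelium, -0.39 to -0.19 for oocytes, -0.42 to -0.15 for macrophages and -0.50 to -0.14 for interferon-induced genes, and those of granulosa (-0.08 to 0.17) and luteal (-0.04 to 0.34) genes changed sign.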

Other observations

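Other lists held values outside the comparisons above. Plasma cell genes were near the floor at 6 months and well measured in both 12-month groups. Igha, the heavy chain of immunoglobulin A, measured 14.2 ± 8.04 at 6 months, 256 ± 176 in the 12-month controls and 358 ± 107 after canagliflozin, and Igkc, the kappa light chain, 13.5 ± 2.67, 245 ± 103 and 292 ± 72.9. Jchain, which joins immunoglobulin multimers, measured 8.54 ± 3.15, 95.05 ± 51.5 and 96.1 ± 14.1. Of 19 clock genes 13 were positive (median log2 fold change 0.09) between canagliflozin and 12-month controls. The clock output gene Dbp measured 3302 ± 1095 at 6 months, 1331 ± 175 in the 12-month controls and 1992 ± 782 after canagliflozin, and the sources used here do not give the time of collection. Immediate-early genes had 18 of 21 positive and a median of 0.42, with the level of canagliflozin replicate 3 (10.6) above all others (8.23 to 9.56). Without canagliflozin replicate 3 that median was 0.14. Of 17 genes of the primordial follicle pool 14 were negative (median -0.17), and the list levels, 8.63 to 8.89 against 8.84 to 8.94, overlapped through canagliflozin replicate 5. Its member Kit, the receptor of stem cell factor, measured 342 ± 75.5 after canagliflozin, 464.5 ± 175 in the 12-month controls and 587 ± 128 at 6 months. Fibroblastic stroma gave 15 of 18 negative (median -0.17), with Smoc2 at 3673 ± 873 against 5103 ± 957 and Ogn at 1720 ± 366 against 2178 ± 292. Ppargc1b, a coactivator of mitochondrial genes, measured 30.1 ± 13.2 against 16.9 ± 3.50. In the list of mitochondrial dynamics and biogenesis, 9 of 19 genes were positive (median -0.02). Of the 19, 3 had an unadjusted p under 0.05, all on the higher side (4.86% of all genes).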
